A study of Mus musculus with 3 samples.

Results

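T cell receptor variable genes were described in mouse blood leukocytes. They were taken as every row of the 3 matrices whose symbol starts with Trbv, Trav, Trgv or Trdv. The rule found 22 of 19059 genes, all of them Trbv genes of the beta chain, so Trav, Trgv and Trdv genes were not analysed here. The study, whose title concerns macrophages of the spleen, provided 3 libraries of peripheral blood leukocytes from untreated male mice, 1 each at 8, 9 and 10 weeks of age, called libraries 1, 2 and 3. No strain, allele or agent was named for any of them, and they form a single group, so comparisons were made between classes of cells within the libraries. Red cells had been lysed, leukocytes stained with DAPI and Draq5 and sorted, and fixed RNA was counted with gene-specific probes in droplets. Nothing states that the libraries came from separate animals, so p-values may measure only the spread between these samples.

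A T cell reads antigen through a receptor of an alpha and a beta chain, or of a gamma and a delta chain, held at the surface by the CD3 proteins. The beta chain is built in the thymus by joining a variable (V), a diversity and a joining segment to a constant gene, Trbc1 or Trbc2. Joining of most V segments deletes the DNA between the chosen V segment and the diversity segment, so that V segments upstream of it stay on that chromosome; Trbv31, which lies beyond the constant genes in reverse orientation, joins by inversion. Productive joining on a single allele, called allelic exclusion, leaves most T cells with a single beta chain. The V segment carries contact loops for the antigen and the presenting MHC protein, CD4 binds class II and CD8 class I MHC molecules, and V usage therefore describes the receptor repertoire.

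The 22 genes lie on chromosome 6 of GRCm38. Trbv1 to Trbv30 span chr6:40891229-41281990 on the plus strand (21 genes, 391 kb), and Trbv31 lies at chr6:41557691-41558452 on the minus strand. GENCODE M21 annotates 22 V genes at the locus, all measured here, and 13 V pseudogenes. Sequence likeness bears on which gene a probe can read, and over all 231 pairs the V exons had a median identity of 51.3%. Only 6 pairs were at 70% or above. The members most alike belong to the Trbv12 and Trbv13 subgroups, whose V exons are printed 5′ to 3′ from GENCODE M21 on GRCm38. Trbv12-2, detected in the most T cells, is shown first at chr6:41119072-41119364, and Trbv12-1 at chr6:41113775-41114067, with capitals at its 32 differences from Trbv12-2 (89.1% identity).
Trbv12-2: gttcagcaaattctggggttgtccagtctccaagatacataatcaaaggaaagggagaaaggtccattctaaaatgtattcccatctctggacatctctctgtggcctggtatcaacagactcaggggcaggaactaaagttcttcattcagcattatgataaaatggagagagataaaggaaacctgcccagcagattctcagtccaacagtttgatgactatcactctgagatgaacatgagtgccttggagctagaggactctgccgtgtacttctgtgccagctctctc
Trbv12-1: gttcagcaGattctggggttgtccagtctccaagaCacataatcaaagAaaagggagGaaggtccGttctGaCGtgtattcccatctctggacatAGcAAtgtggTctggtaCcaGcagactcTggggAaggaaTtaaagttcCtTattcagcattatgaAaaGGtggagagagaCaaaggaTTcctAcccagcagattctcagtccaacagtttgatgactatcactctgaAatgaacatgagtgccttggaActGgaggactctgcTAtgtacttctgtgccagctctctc
Trbv13-2, the least detected member, is at chr6:41121539-41121832. Trbv13-1 at chr6:41116178-41116468 and Trbv13-3 at chr6:41130292-41130585 follow, with 36 and 24 differences from Trbv13-2, gaps included (87.8% and 91.8% identity), and the differing letters in capitals. All 5 exons are on the plus strand.
Trbv13-2: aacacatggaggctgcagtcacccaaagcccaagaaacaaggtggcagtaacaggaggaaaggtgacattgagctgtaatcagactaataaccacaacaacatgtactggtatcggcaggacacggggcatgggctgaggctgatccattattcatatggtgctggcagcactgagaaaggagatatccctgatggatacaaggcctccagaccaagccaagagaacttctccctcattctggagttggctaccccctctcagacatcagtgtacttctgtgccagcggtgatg
Trbv13-1: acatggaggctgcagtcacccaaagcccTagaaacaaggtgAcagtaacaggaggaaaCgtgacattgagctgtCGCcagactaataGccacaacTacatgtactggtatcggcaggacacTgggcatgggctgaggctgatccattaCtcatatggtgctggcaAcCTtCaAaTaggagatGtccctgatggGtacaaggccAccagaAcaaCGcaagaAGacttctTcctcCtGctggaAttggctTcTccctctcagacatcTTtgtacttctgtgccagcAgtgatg
Trbv13-3: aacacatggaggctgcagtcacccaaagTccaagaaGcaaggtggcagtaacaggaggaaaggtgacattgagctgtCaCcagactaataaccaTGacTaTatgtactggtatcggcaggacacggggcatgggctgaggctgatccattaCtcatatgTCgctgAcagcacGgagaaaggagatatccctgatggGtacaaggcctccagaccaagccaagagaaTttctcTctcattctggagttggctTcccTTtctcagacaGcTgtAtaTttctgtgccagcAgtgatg
The probe sequences and probe set version were not given in the sources used here, so which bases each probe reads is not known.

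The libraries held 45718031, 19591648 and 23443660 unique molecular identifiers (UMIs, each a counted molecule), and 10337, 4935 and 6495 cells were kept. Between 48 and 101 barcodes were shared by each pair of libraries, at most 1.45% of the barcodes of either. T cells were defined as cells with 2 or more UMIs of Cd3e, Cd3d and Cd3g together, which gave 4038, 1088 and 1350 cells, 6476 in all (39.1%, 22.05% and 20.8% of cells). Just outside that threshold, 9.86% of 690 cells with 1 Cd3 UMI had a Trbv UMI, and just inside it 37.0% of 138 cells with 2 and 79.8% of 99 cells with 3. T cells with a Cd4 UMI, no Cd8a or Cd8b1 UMI and no Trdc UMI were called Cd4 cells (1513, 384 and 496), and the reverse Cd8 cells (1864, 538 and 597). T cells with 2 or more UMIs of Trdc, the constant gene of the delta chain, and no Cd4 UMI were called Trdc cells (93, 26 and 24), and 941 T cells fell in no class. Markers of B cells were present among T cells: cells with 2 or more UMIs of Cd79a and Cd79b made up 2.45%, 5.70% and 10.6% of T cells in libraries 1, 2 and 3.

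Nearly all T cells carried a Trbv transcript. A UMI of at least 1 of the 22 genes was found in 95.05%, 93.2% and 93.0% of T cells in libraries 1, 2 and 3, against 3.75%, 7.19% and 3.37% of natural killer (NK) cells, 1.95%, 2.84% and 2.15% of B cells and 5.32%, 4.76% and 3.78% of myeloid cells. T cells stood far above the other classes in every library, and the values in NK, B and myeloid cells serve as the background. Median depths were 3574 to 3895 UMIs per T cell, 3344 to 3542 per NK cell, 3086 to 3232 per B cell and 2828 to 2980 per myeloid cell. With each cell thinned to 2000 UMIs the means were 88.9% of T cells, 3.43% of NK cells, 1.49% of B cells and 2.89% of myeloid cells, after leaving out 301, 41, 642 and 242 shallower cells. Cd4 cells (96.6%, 96.4% and 94.6%) and Cd8 cells (97.1%, 94.6% and 96.1%) overlapped. T cells with 2 or more Cd79a and Cd79b UMIs had a Trbv UMI in 96.0%, 77.4% and 84.6% of cells. Intervals and count limits given here cover counting error only.

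**Figure D1:**
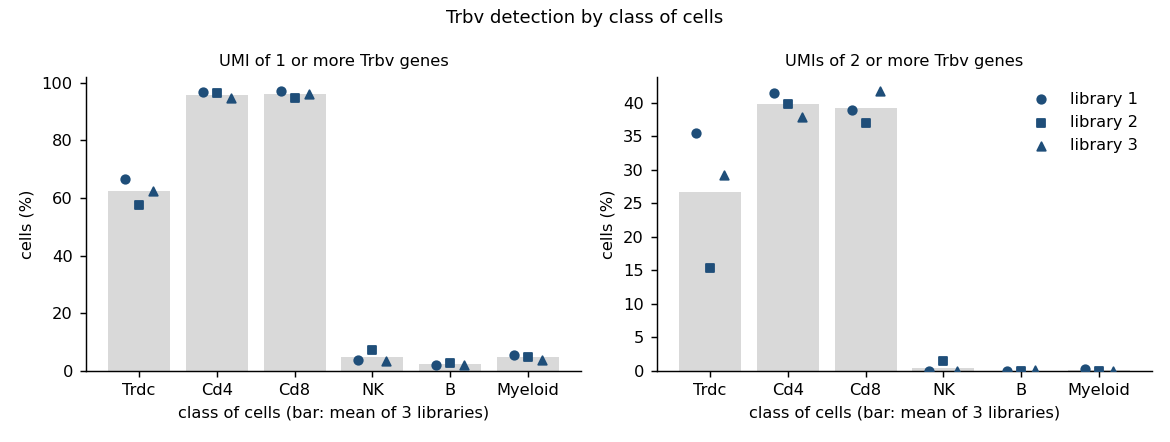
Percentage of cells with UMIs of 1 or more (left) and of 2 or more (right) Trbv genes by class of cells; points are the 3 libraries and bars their means. Trdc cells (57.7% to 66.7% with a Trbv UMI) sit between Cd4 and Cd8 cells at 94.6% or more and NK, B and myeloid cells at 7.19% or less.

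The 369 T cells with no Trbv UMI differed from the others in receptor genes. Trac, the constant gene of the alpha chain, had a UMI in 60.0%, 62.2% and 58.9% of them, against 95.9%, 94.97% and 94.3% of T cells with a Trbv UMI. Trdc had a UMI in 18%, 16.2% and 12.6% of them, against 4.79%, 4.24% and 4.54% of T cells with a Trbv UMI. Their summed Cd3 UMIs were also lower, with medians of 10, 10 and 6, against 14, 13 and 12 in T cells with a Trbv UMI. Their median depths were 3394, 3552 and 3081 UMIs, against 3911, 3925 and 3616 in T cells with a Trbv UMI. The part of depth in the lower receptor counts was not tested.

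Single genes differed widely in detection. Trbv12-2 was found in 29.5%, 29.3% and 31.1% of T cells (30.0% ± 0.976, SD, n = 3). It was followed by Trbv3 (9.43% ± 0.660), Trbv2 (9.30% ± 0.893), Trbv19 (9.12% ± 1.30) and Trbv4 (7.74% ± 0.480). Trbv19 overlapped each of the other 3 across libraries and Trbv2 overlapped Trbv3, while every library of Trbv4 lay below every library of Trbv3 and, by a narrow margin, of Trbv2. In all, 12 genes were above 5% of T cells and 4 below 1%. The 4 were Trbv13-2 (7 cells in all), Trbv30 (24 cells), Trbv21 (33 cells) and Trbv15 (50 cells). Trbv13-2, Trbv15 and Trbv21 were also thin where present, with a median of 1 UMI per positive cell, whereas Trbv30 had a median of 4. Across genes the mean UMIs per positive cell ran between 1.14 for Trbv13-2 and 15.0 for Trbv14. Counts come from probes and are not scaled to length, so these values do not rank the genes' expression.

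**Figure D2:**
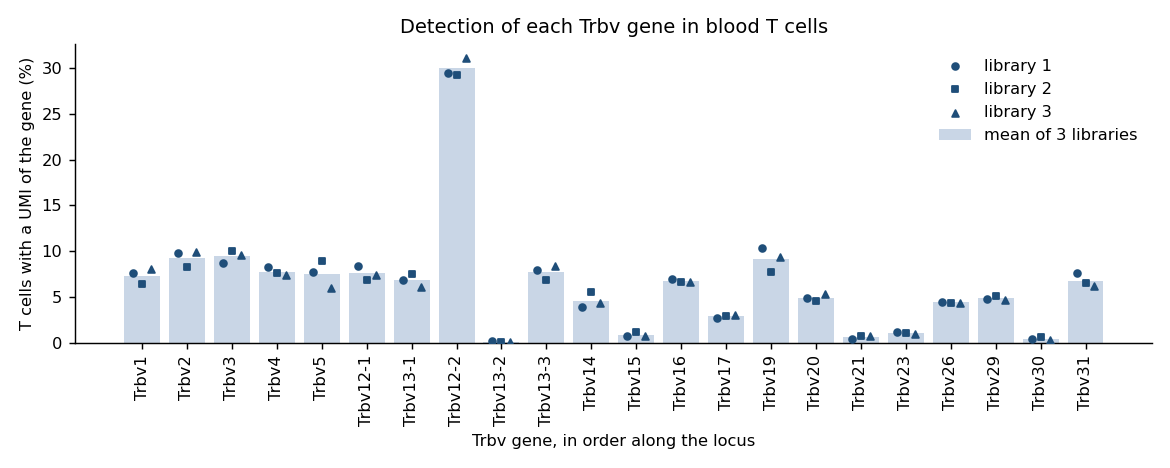
Percentage of T cells with a UMI of each Trbv gene, in the order of the genes along the locus; points are the 3 libraries and bars their means. Trbv12-2 stands at 30.0%, and every other gene is at 10.3% or less in every library.

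Background in other cells was low for nearly every gene. In myeloid cells 21 of the genes were in 0.369% of cells or fewer, while Trbv1, the most upstream member, was in 2.95% (88 of 2984 cells). Trbv1 was also in 1.84% of NK cells (16 of 868) and 0.253% of B cells (24 of 9498), against 7.33% ± 0.807 of T cells. Trbv12-2 was in 0.691% of NK cells, 0.611% of B cells and 0.369% of myeloid cells.

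The first question on exclusivity is how many beta V genes a cell held. Of the 6476 T cells, 3580 (55.3%) had UMIs of exactly 1 Trbv gene, 2049 (31.6%) of 2, 429 of 3 and 44 of 4, 4 of 5 and 1 of 7. Cells with 2 or more genes made up 39.4%, 37.7% and 39.0% of T cells in the 3 libraries. Requiring 2 UMIs for a gene to count lowered the mean share to 19.8%, thinning to 2000 UMIs to 27.4%, and leaving out Trbv12-2 to 24.4%. In the 2527 cells with 2 or more genes the leading gene held a median of 75% of the Trbv UMIs. The second gene had 1 UMI in 1193 of them (47.2%), and Trbv12-2 was among the genes in 1313 (52.0%). Over all T cells, 87.1% of Trbv UMIs belonged to the leading gene of their cell. A second gene with 3 or more UMIs was present in 724 T cells (11.2%). T cells with UMIs of both coreceptors (253, 32 and 86 cells) had 2 or more Trbv genes in 39.5%, 40.6% and 46.5% of cells, against 41.4%, 39.8% and 37.9% of Cd4 cells and 38.9%, 37.0% and 41.7% of Cd8 cells, so these classes overlapped at 2 or more. With both coreceptors, 9.49%, 12.5% and 11.6% of cells had 3 or more Trbv genes. These shares lay above every Cd4 value (8.26%, 7.55% and 6.25%) and every Cd8 value (7.40%, 5.95% and 7.87%). The part of doublets was not tested.

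Pairs of genes shared fewer cells than the product of their single shares gives. Of the 148 pairs whose product came to 5 or more cells, 138 were found in fewer cells than the product, with a median ratio of 0.491. Among the 117 of these pairs that are not neighbours and do not include Trbv12-2, all were below 1 (median 0.463, highest 0.920). Depth differs between cells and enters every ratio, so these ratios are descriptions with no test. Of the 12 neighbouring pairs with such a product, 3 were above 1 and 9 below (median 0.617, lowest 0.344). Trbv2 and Trbv3, 294 bases apart, were found together in 140 cells against a product of 56.2, a ratio of 2.49 (2.47, 2.77 and 2.36 per library). The neighbours Trbv12-1 and Trbv13-1 had a ratio of 1.43 (1.29, 1.97 and 1.48 per library). For the neighbours Trbv16 and Trbv17 it was 1.46, with 0.75 in library 3, where they shared 2 cells. Among pairs with a product of 5 or more cells, those most alike in sequence were below 1. Trbv12-1 and Trbv12-2 (89.1% identity) had a ratio of 0.556, and Trbv13-1 and Trbv13-3 (85.03%) a ratio of 0.321. Alike pairs under that product went both ways on few cells. Trbv13-2 and Trbv13-3 (91.8%) shared 1 cell (ratio 1.83) and Trbv23 and Trbv26 (72.9%) 7 cells (2.32), all in library 1. Trbv13-1 and Trbv13-2 (87.8%) shared 0 cells, as did Trbv15 and Trbv16 (72.1%).

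**Figure D3:**
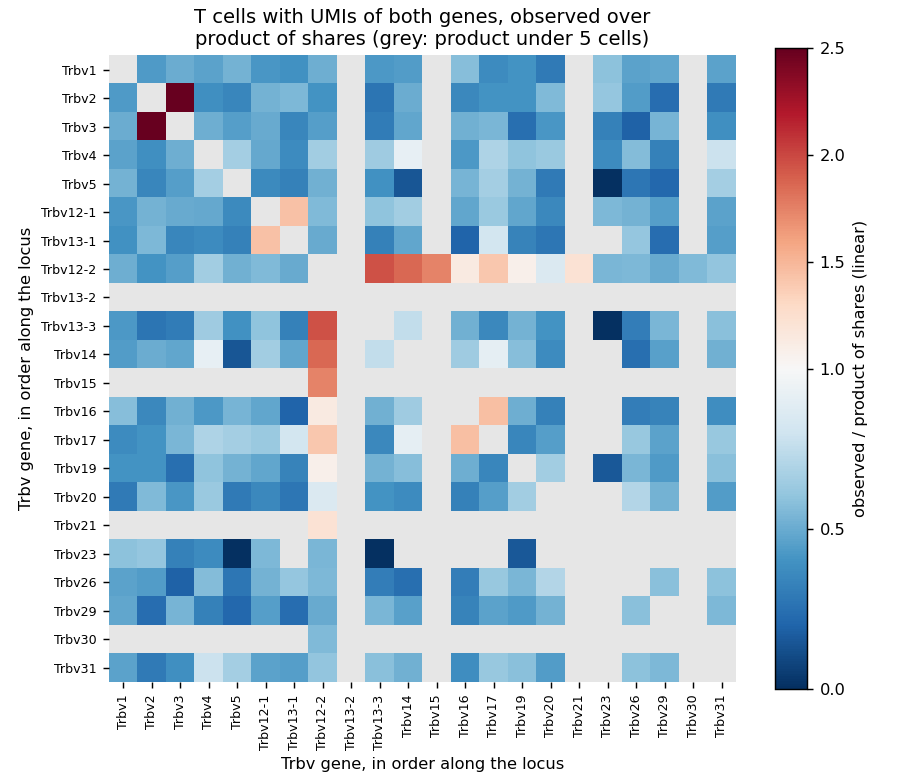
Number of T cells with UMIs of both genes of a pair, divided by the product of their shares, with genes in order along the locus on both axes; grey marks pairs whose product was under 5 cells. Most pairs are below 1 (blue), while Trbv2 with Trbv3 (2.49) and Trbv12-2 with genes just downstream of it (up to 1.95) are above 1 (red).

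Trbv12-2 accounted for the other 7 pairs above 1, all with genes downstream of it. The ratio was 1.95 with Trbv13-3, 1.86 with Trbv14, 1.75 with Trbv15, 1.41 with Trbv17, 1.21 with Trbv21, 1.14 with Trbv16 and 1.08 with Trbv19. Those with Trbv19 and Trbv21 were below 1 in library 3 (0.995 and 0.964). With the 6 other downstream genes the ratio was 0.499 to 0.853. With the 7 genes upstream it was 0.401 to 0.650. The same order appeared when T cells were sorted by their leading gene other than Trbv12-2, taken as the gene with the most UMIs and at least 2. A Trbv12-2 UMI was present in 60.3%, 49.1% and 64.9% of cells led by Trbv13-3 and in 56.8%, 60.0% and 48.8% of cells led by Trbv14. It was present in 34.2%, 39.1% and 34.8% of cells led by Trbv16, 32.3%, 35.3% and 31.6% of those led by Trbv19, and 23.8%, 17.6% and 24.4% of those led by Trbv20. In cells led by the 4 genes farther along with 20 or more cells (Trbv23, Trbv26, Trbv29 and Trbv31) the pooled share was 13.1% to 15.0%. In cells led by the 7 upstream genes it was 10.9% to 19.5%. Cells led by Trbv13-3, Trbv14, Trbv16, Trbv17 and Trbv19 were above those led by any upstream gene in each library, while those led by the farthest downstream genes were not. In the 1313 cells that held Trbv12-2 with another gene, Trbv12-2 did not lead in 1007 (76.7%) and had a median of 1 UMI. In the 619 cells where it was the single Trbv gene the median was 3 UMIs, and 102 cells had 10 or more.

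**Figure D4:**
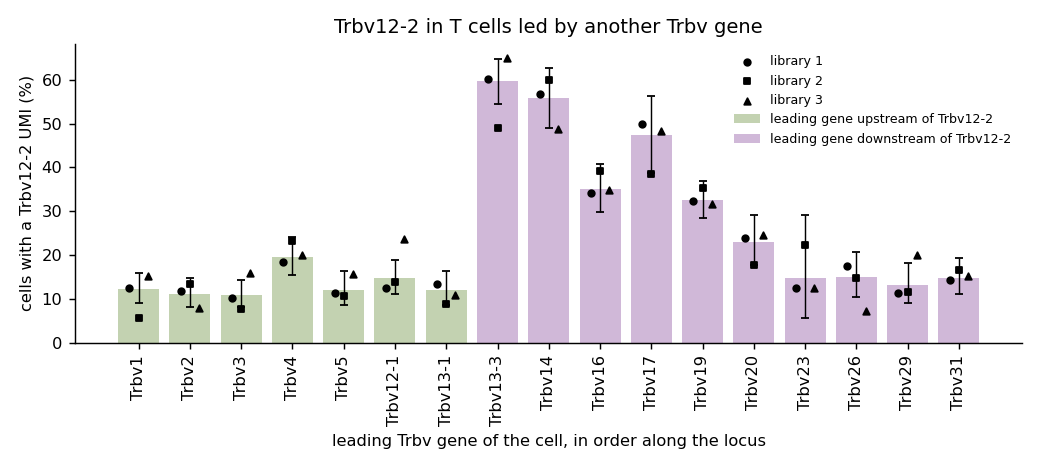
Percentage of T cells with a Trbv12-2 UMI by the leading other Trbv gene, in order along the locus; bars are pooled values with exact 95% binomial intervals and points are libraries. The share is 10.9% to 19.5% for upstream leading genes, 59.6% for Trbv13-3 and 55.9% for Trbv14, and 14.8% for Trbv31.

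Usage was taken as the share of each gene among cells with a single Trbv gene. In T cells the 5 most used genes were Trbv12-2 (17.6% ± 0.798), Trbv2 (7.26% ± 0.984), Trbv3 (7.25% ± 1.05), Trbv5 (7.001% ± 1.503) and Trbv1 (6.80% ± 0.647). Trbv13-2 and Trbv21 were never the single gene, and Trbv15 and Trbv30 were so in 12 cells each. Trbv12-2 led in 815 (42.2%) of the 1932 T cells that held it. Of the 619 cells with Trbv12-2 alone, 398 (64.3%) had 1 to 4 UMIs. A cell with a Trbv12-2 UMI whose own V gene was missed would be counted under Trbv12-2. Usage here is thus the share of genes detected alone, and how well each probe reads its gene was not tested. The inverse Simpson number, the count of equally used genes that would give the same evenness, was 13.2, 12.7 and 12.6 in T cells. It was 12.9, 12.6 and 13.2 in Cd4 cells, against 11.6, 10.9 and 11.01 in Cd8 cells, with no overlap. Over the 22 genes, usage in T cells of different libraries had Pearson correlations of 0.953 to 0.986, and usage in Cd4 and Cd8 cells of the same library 0.582 to 0.748. These correlations are across genes that share a total and are given as a description.

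Several Trbv genes differed in level between Cd4 and Cd8 cells, while Trbv12-2 was the most used gene in every library of both classes. UMIs were summed per library and class and tested with edgeR's quasi-likelihood test over all genes, with the library as a block and Benjamini-Hochberg adjustment. Of the 22 members 19 passed the low-count filter; Trbv13-2, Trbv15 and Trbv21 did not. At an adjusted p of 0.05, 6 of the 19 were higher in Cd4 cells (12.2% of all 9324 genes tested were higher) and 4 were lower (12.1% of all genes were lower). The median log2 fold over the 19 was 0.38, against 0.00 over all genes. Median depths were 3617, 3429 and 3299 UMIs in Cd4 cells, against 4199.5, 4290.5 and 3928 in Cd8 cells. Without scaling to totals, Cd4 cells held 7.57, 6.95 and 6.87 Trbv UMIs per cell. Cd8 cells held more in each library (8.54, 8.24 and 7.35). The part of depth in the folds was not tested. Levels are CPM, that is UMIs scaled to an equal total per library and class with TMM factors, and a lower sum can mean fewer cells with the gene or less RNA per cell.

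The genes higher in Cd4 cells were Trbv31, Trbv2, Trbv3, Trbv5, Trbv1 and Trbv26. Trbv31, the inverted gene, had 182, 166 and 167 CPM in Cd4 cells, against 43.9, 39.2 and 26.2 CPM in Cd8 cells. The groups were far apart (edgeR log2 fold 2.18, SE 0.10, adjusted p = 1.5e-19). Its usage, that is its share of cells with a single Trbv gene, was 8.37% ± 0.655 in Cd4 cells and 2.04% ± 0.713 in Cd8 cells. Trbv2 had 187, 150 and 184 CPM in Cd4 cells, against 67.1, 60.1 and 57.1 CPM in Cd8 cells (edgeR log2 fold 1.49, SE 0.08, adjusted p = 3.0e-18). Its neighbour Trbv3 had 126, 168 and 142 CPM in Cd4 cells, against 79.7, 73.2 and 82.1 CPM in Cd8 cells (edgeR log2 fold 0.82, SE 0.09, adjusted p = 3.3e-10). Neither gene's groups overlapped, and usage of Trbv2 was 9.88% ± 1.53 in Cd4 cells and 4.70% ± 0.320 in Cd8 cells. Usage of Trbv3 was 8.80% ± 0.793 in Cd4 cells and 5.99% ± 0.725 in Cd8 cells. The log2 folds of Trbv5, Trbv1 and Trbv26 were 0.81, 0.59 and 0.38. The levels overlapped for Trbv26 and not for Trbv5 or Trbv1. Usage of Trbv5 was 9.33% ± 1.11 in Cd4 cells and 5.32% ± 2.02 in Cd8 cells, with no overlap. Usage of Trbv1 was 6.77% ± 1.11 in Cd4 cells and 6.03% ± 0.194 in Cd8 cells, with overlap and lower in Cd4 cells in library 2. Usage of Trbv26 was 4.79% ± 0.826 in Cd4 cells and 3.30% ± 0.776 in Cd8 cells, with overlap.

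The genes lower in Cd4 cells were Trbv12-1, Trbv29, Trbv12-2 and Trbv16. Trbv12-1 had 45.2, 36.7 and 51.3 CPM in Cd4 cells, against 156, 103 and 134 CPM in Cd8 cells (edgeR log2 fold −1.63, SE 0.10, adjusted p = 1.6e-15), and usage was 1.70% ± 0.785 in Cd4 cells and 8.69% ± 2.77 in Cd8 cells. Trbv29 had 44.2, 44.2 and 32.8 CPM in Cd4 cells, against 110, 112 and 104 CPM in Cd8 cells (edgeR log2 fold −1.40, SE 0.22, adjusted p = 0.0049). Its usage was 1.81% ± 0.0331 in Cd4 cells and 6.50% ± 0.601 in Cd8 cells. Trbv12-2 had 182, 169 and 196 CPM in Cd4 cells, against 305, 350 and 304 CPM in Cd8 cells (edgeR log2 fold −0.79, SE 0.07, adjusted p = 8.6e-13). Its usage was 13.3% ± 0.720 in Cd4 cells and 21.3% ± 1.496 in Cd8 cells. For these 3 genes no Cd4 value reached the lowest Cd8 value. Usage of Trbv16 was 4.32% ± 0.265 in Cd4 cells and 5.70% ± 0.816 in Cd8 cells, with no overlap. Counted as cells with any UMI, Trbv12-2 was in 27.5% of Cd4 and 32.9% of Cd8 cells, and a test on numbers of cells gave a log2 fold of −0.06 (edgeR adjusted p = 0.57). Trbv14 had 64.1, 140 and 181 CPM in Cd4 cells, against 212, 284 and 201 CPM in Cd8 cells, and did not pass (log2 fold −1.06, SE 0.41, edgeR adjusted p = 0.17). In the test on numbers of cells, chosen after seeing the data, it passed (log2 fold −0.84, edgeR adjusted p = 5.0e-04).

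The calls of Trbv31, Trbv2, Trbv3 and Trbv12-1 held under every alternative run. With DESeq2, Trbv1, Trbv5, Trbv16, Trbv26 and Trbv29 lost their calls (adjusted p = 0.054 to 0.76), which left 3 genes higher and 2 lower. Of all 9324 genes DESeq2 called 646 higher and 624 lower, against 1140 and 1127 with edgeR. Trbv1 was not called without library 1 (log2 fold 0.44, edgeR adjusted p = 0.061). Trbv26 lost its call in 4 of 13 alternatives, among them DESeq2 and the run without library 3 (0.28, edgeR adjusted p = 0.082). Trbv16 was called neither without library 1 (−0.27, edgeR adjusted p = 0.24) nor without library 3 (−0.23, edgeR adjusted p = 0.205). It lost its call in 7 of 13 alternatives: these 2, DESeq2, no block, called doublets kept, tests on numbers of cells, and a coreceptor of 2 or more UMIs. Apart from DESeq2, each of these gave 3 genes lower in place of 4, and 594 to 1336 lower over all genes in place of 1127. Trbv23 was called higher without library 1 (log2 fold 3.07), as were Trbv4, Trbv19 and Trbv20 without library 2 (0.40, 0.35 and 0.53). Over the genes of the receptor complex and its signalling, 8 of 14 tested were higher in Cd4 cells and 1 was lower. Trac averaged 1945 ± 132 CPM in Cd4 cells and 1492 ± 89.2 CPM in Cd8 cells. NK markers were lower in Cd4 cells for 4 of 6 tested, with sums of 98.8 to 147 CPM in Cd4 cells and 303 to 371 CPM in Cd8 cells. Sums of the 8 B cell markers were 1214 to 2100 CPM in Cd4 cells and 1242 to 1704 CPM in Cd8 cells. Sums of the 8 myeloid markers were 841 to 1695 CPM in Cd4 cells and 252 to 1040 CPM in Cd8 cells, with 0 of the 8 called. The part of these marker lists in the V gene values was not tested.

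**Figure D5:**
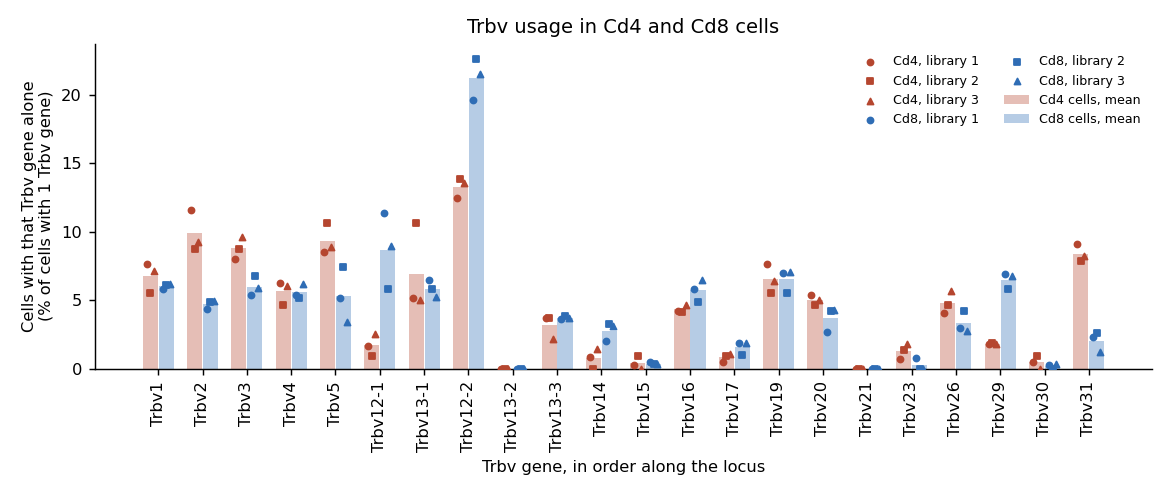
Share of each Trbv gene among Cd4 (red) and Cd8 (blue) cells with a single Trbv gene, in order along the locus; points are the 3 libraries and bars their means. Trbv31 (8.37% of these Cd4 and 2.04% of these Cd8 cells) and Trbv2 (9.88% and 4.70%) have no overlap and are higher in Cd4 cells, while Trbv12-1 (1.70% of these Cd4 and 8.69% of these Cd8 cells), Trbv29 (1.81% and 6.50%) and Trbv12-2 (13.3% and 21.3%) have none and are lower.

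Trdc cells were compared with Cd4 and Cd8 cells, to ask how far beta V genes reach into cells with a delta constant transcript. The class carried its known genes: all 15 tested genes of the innate-like list were higher than in Cd4 and Cd8 cells, among them Cd163l1, a receptor of gamma delta T cells (201 ± 80.1 CPM in Trdc cells and 10.4 ± 12.1 CPM in Cd4 and Cd8 cells). Trac fell to 472 ± 135 CPM in Trdc cells, against 1719 ± 268 CPM in Cd4 and Cd8 cells (log2 fold −1.71, edgeR adjusted p = 1.6e-16). The SDs given for Cd4 and Cd8 cells together pool the sums of both classes, so they include the difference between the classes. Of 6 NK markers tested 4 were higher, with sums of 385 to 1424 CPM in Trdc cells and 98.8 to 371 CPM in Cd4 and Cd8 cells. Their part in the V gene results was not tested.

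Beta V transcripts were fewer in Trdc cells but not absent. A Trbv UMI was found in 66.7%, 57.7% and 62.5% of Trdc cells, below every Cd4 and Cd8 value and above every NK value. Median depths were 4628, 3982 and 3715 UMIs, and after thinning the mean was 56.9% of Trdc cells, against 90.7% of Cd4 and 90.6% of Cd8 cells. The summed Trbv level was 985 to 1433 CPM in Trdc cells and 1860 to 2035 CPM in Cd4 and Cd8 cells. Trac had a UMI in 50.5%, 46.2% and 50.0% of Trdc cells. Those without Trac (46, 14 and 12 cells) had a Trbv UMI in 47.8%, 42.9% and 66.7% of cells, and those with Trac (47, 12 and 12 cells) in 85.1%, 75.0% and 58.3%. In libraries 1 and 2 the cells without Trac were lower, and in library 3, with 12 cells on each side, they were not. NK cells without a Cd3 UMI also carried Trdc, in 45.5%, 42.4% and 39.3% of cells. They carried Trbc1 at 2.63, 2.62 and 2.51 UMIs per cell, while at most 7.19% had a Trbv UMI.

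By gene, 6 of the 19 tested members were lower in Trdc cells (2.36% of all 9324 genes were lower) and 0 were higher (3.99% of all genes were higher). At an unadjusted p under 0.05 edgeR had 0 higher, and DESeq2 called 0 higher (384 of all 9324 genes were higher with DESeq2). The median log2 fold over the 19 was −1.07, against −0.02 over all genes. Trbv31 had 0 UMIs in all 143 Trdc cells, which allows a share of up to 2.10% of cells with a UMI. In Cd4 and Cd8 cells Trbv31 had a UMI in a mean of 10.6% of Cd4 cells (266 of 2393) and 4.20% of Cd8 cells (125 of 2999), 2074 UMIs in all, and its level was called lower in Trdc cells (edgeR adjusted p = 8.3e-09). Trbv5 had 9.39, 0 and 0 CPM in Trdc cells, 4 UMIs in all, against 38.1 to 82.4 CPM in Cd4 and Cd8 cells (log2 fold −3.23, SE 0.50, edgeR adjusted p = 1.1e-05). Trbv26 had 21.1, 0 and 0 CPM in Trdc cells, against 61.3 to 112 CPM in Cd4 and Cd8 cells (log2 fold −2.50, SE 0.40, edgeR adjusted p = 3.2e-05). Trbv13-1 had 23.5, 0 and 0 CPM in Trdc cells, against 62.1 to 79.4 CPM in Cd4 and Cd8 cells (log2 fold −2.12, SE 0.38, edgeR adjusted p = 1.0e-04). Trbv1 and Trbv16 were also lower, with log2 folds of −1.47 and −1.13 (edgeR adjusted p = 0.0068 and 0.015).

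These levels rest on few cells: Trbv5, Trbv13-1, Trbv26 and Trbv1 each had a UMI in 4 Trdc cells. Trbv12-2 was the most often detected, in 40 of 143 Trdc cells (28.0%), and its level of 260, 210 and 279 CPM lay within the range of 169 to 350 CPM in Cd4 and Cd8 cells (log2 fold 0.09, SE 0.12, edgeR adjusted p = 0.82). Trbv17 had 110, 328 and 186 CPM in Trdc cells, carried by 8 cells, against 46.2 to 132 CPM in Cd4 and Cd8 cells (log2 fold 0.85, SE 0.85, edgeR adjusted p = 0.75). Tested on numbers of cells in place of UMIs, 1 of the 6 genes, Trbv31, stayed lower. Of all 9206 genes in that test 59 were lower, against 220 of 9324 on UMIs. Trbv16 was not called without library 2 (log2 fold −0.84, edgeR adjusted p = 0.079) or library 3 (−0.96, edgeR adjusted p = 0.11), and Trbv17 was called higher without library 1 (1.34, edgeR adjusted p = 9.8e-04). With Trdc cells taken from 1 UMI of Trdc, Trbv1 (−0.31, edgeR adjusted p = 0.37) and Trbv5 (−0.95, edgeR adjusted p = 0.13) were not called. With called doublets kept, Trbv1 (−1.09, edgeR adjusted p = 0.19) and Trbv16 (−1.03, edgeR adjusted p = 0.057) were not called. Also called lower were Trbv19 and Trbv29 without library 1, Trbv4, Trbv19 and Trbv20 without library 2, and Trbv2 without library 3. With Trdc cells limited to those without Trac, an alternative chosen after seeing the data, 9 members were lower and 0 higher, with Trbv2, Trbv19 and Trbv29 added to the 6. Of all 9260 genes in that run, 244 were lower and 316 higher.

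Within Cd8 cells, those with 2 or more UMIs of Ccl5, a chemokine of memory-type cells (492, 159 and 141 cells), were compared with those with none (1247, 346 and 418 cells). Ccl5-positive cells had higher Tbx21 and Eomes, regulators of effector and memory cells, with Tbx21 at 215 ± 11.8 CPM in Ccl5-positive cells and 10.8 ± 3.75 CPM in Ccl5-negative cells. Of 17 members tested, 4 were lower in Ccl5-positive cells (8.71% of all 8908 genes were lower) and 0 were higher (10.3% of all genes were higher). At an unadjusted p under 0.05 edgeR had 2 higher, Trbv3 and Trbv17, and DESeq2 called 0 higher (456 of all 8908 genes were higher with DESeq2). The median log2 fold was −0.07 over the 17 and 0.00 over all genes. The summed Trbv level was 1647 to 1791 CPM in Ccl5-positive cells and 1890 to 1980 CPM in Ccl5-negative cells. Median depths were 5036, 5099 and 4321 UMIs in Ccl5-positive cells, against 3957, 4025.5 and 3846 in Ccl5-negative cells. Without scaling to totals, the mean was 8.59 Trbv UMIs per Ccl5-positive cell and 7.70 per Ccl5-negative cell. The part of depth was not tested. Trbv29 had 71.7, 83.7 and 45.7 CPM in Ccl5-positive cells, against 131, 113 and 122 CPM in Ccl5-negative cells. The groups did not overlap (log2 fold −0.85, SE 0.12, edgeR adjusted p = 2.8e-07), and the call held in every alternative. Its usage was 4.96% ± 1.45 in Ccl5-positive cells and 6.84% ± 1.59 in Ccl5-negative cells, which overlapped. Trbv4 (log2 fold −0.69, edgeR adjusted p = 9.3e-06) and Trbv13-1 (−0.70, edgeR adjusted p = 1.2e-04) were also lower with no overlap. Trbv13-3 was lower (−0.44, edgeR adjusted p = 0.023) with overlap.

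Without library 1, Trbv13-1 (log2 fold −0.34, edgeR adjusted p = 0.35) and Trbv13-3 (−0.05, edgeR adjusted p = 0.92) lost their calls, which left 2 genes lower, and Trbv2 was called higher (0.90, edgeR adjusted p = 0.011). Of all 8708 genes in that run, 345 were lower and 456 higher. Trbv13-3 also lost its call without library 3 (−0.50, edgeR adjusted p = 0.11), and without library 2 Trbv3, Trbv12-1, Trbv17 and Trbv20 were called higher (log2 folds of 0.26 to 0.66). In all Trbv13-3 lost its call in 7 of 13 alternatives. Trbv4 lost its call when cells in place of UMIs were tested (−0.43, edgeR adjusted p = 0.19). Usage of Trbv12-2 was 24.0% ± 2.22 in Ccl5-positive and 20.3% ± 1.13 in Ccl5-negative cells with no overlap, while its level did not pass (log2 fold −0.03, SE 0.06, edgeR adjusted p = 0.79). The inverse Simpson number was 10.1, 9.55 and 9.01 in Ccl5-positive cells, against 11.9, 11.4 and 10.7 in Ccl5-negative cells. It rests on 289, 91 and 79 Ccl5-positive cells with a single Trbv gene, against 717, 199 and 225 Ccl5-negative cells. The part of cell number in this difference was not tested. NK markers were higher for 5 of 6 tested, with sums of 606 to 756 CPM in Ccl5-positive cells and 137 to 247 CPM in Ccl5-negative cells, and their part was not tested.

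Foxp3-positive Cd4 cells, the regulatory type (102, 38 and 22 cells), were compared with Foxp3-negative Cd4 cells (1411, 346 and 474). All 5 tested genes of the regulatory list were higher, among them Il2ra, a subunit of the interleukin 2 receptor (587 ± 25.3 CPM in Foxp3-positive cells and 5.71 ± 3.33 CPM in Foxp3-negative cells). Of 17 members tested, 1 was higher (6.44% of all 8336 genes were higher) and 1 was lower (3.63% of all genes were lower). The median log2 fold was −0.28 over the 17 and −0.02 over all genes. Trbv13-3 had 125, 215 and 132 CPM in Foxp3-positive cells, against 92.9, 61.2 and 69.7 CPM in Foxp3-negative cells (log2 fold 0.93, SE 0.23, edgeR adjusted p = 0.0053). Trbv17 had 11.4, 0 and 0 CPM in Foxp3-positive cells, 5 UMIs in 2 cells, against 48.5, 132 and 109 CPM in Foxp3-negative cells (log2 fold −3.37, SE 0.48, edgeR adjusted p = 3.1e-06). Neither gene's groups overlapped in level. Usage of Trbv13-3 rested on 2 Foxp3-positive cells and was 0%, 11.1% and 0% in Foxp3-positive cells, against 3.95%, 3.02% and 2.25% in Foxp3-negative cells, which overlapped. Trbv13-3 was not called without library 2 (log2 fold 0.55, edgeR adjusted p = 0.27), and Trbv17 was not called with DESeq2 (adjusted p = 0.095) or without the block (edgeR adjusted p = 0.296). Trbv12-2 and Trbv19 were also called lower without library 1, Trbv13-1 without library 2 and Trbv14 without library 3, which gave 3, 2 and 2 genes lower in place of 1. Over all genes, 132 of 8142, 187 of 8743 and 301 of 8494 were lower in these runs. Of 7 B cell markers tested 6 were higher in Foxp3-positive cells, with sums of 1869 to 6323 CPM in Foxp3-positive and 1159 to 1860 CPM in Foxp3-negative cells. Their part in the V gene values was not tested.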

How the data were processed

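Single-cell UMI counts per gene and barcode were deposited by the authors as raw counts with no normalization, beside lists of gene and barcode identifiers. Per the file headers, the matrices came from Cell Ranger 7.1.0. The build they used is not given in the sources used here. Barcodes held a median of 3539, 3138 and 3086 UMIs in libraries 1, 2 and 3.

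Barcodes with under 200 genes (101, 685 and 396) and doublets called by Scrublet in scanpy 1.11.5 (6.06%, 2.30% and 2.08%) were removed. Cells were classed by raw UMIs. B cells had 2 or more Cd79a and Cd79b UMIs, myeloid cells 2 or more Csf3r UMIs and NK cells 2 or more Ncr1 and Klrb1c UMIs, all with no Cd3 UMI. Class-defining genes stayed out of the tests. Counts summed per library and class were tested on all genes with edgeR 4.0.16 (quasi-likelihood, robust, TMM, filterByExpr), with the library as a block, since the classes come from the same library. The threshold was 0.05 after Benjamini-Hochberg adjustment. The fits were also run on simulated counts, in which only genes above a count minimum were changed. That run does not cover members with few UMIs. Shares carry exact 95% binomial intervals in the tables and are given as mean ± SD over 3 libraries.

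The members, lists and rules were chosen with earlier results of these data known. Members past the threshold are named, as are the 5 most and the 3 least used genes, and genes of the lists; other members named were chosen after their values were seen. Alternatives were other normalizations, DESeq2 1.42.0, no filter, no block, each library left out, other gates, doublets kept and thinning. Tests on numbers of cells, Trdc cells without Trac, usage by leading gene and leaving out Trbv12-2 were chosen after seeing the data. Sequences and positions are from GENCODE M21, matched by gene identifier for all 22 genes.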

Additional observations from a re-analysis of the deposited data

How the results depend on the processing

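No member called in the main fits changed direction in an alternative fit, and members not called there were not checked for direction. DESeq2 called 3 members higher and 2 lower in Cd4 cells, 2 lower in Ccl5-positive cells and 0 lower in Foxp3-positive cells. Over all genes these counts were 646, 624, 310 and 99, against 1140, 1127, 776 and 303 in the main fits. Without the replicate block, which pairs classes of the same library, 5 members were higher and 3 lower in Cd4 cells, 0 higher and 5 lower in Trdc cells, 0 higher and 2 lower in Ccl5-positive cells, and 1 higher and 0 lower in Foxp3-positive cells. Over all genes these counts were 760 and 782, 336 and 179, 665 and 503, and 572 and 339. In the main fits they were 1140 and 1127, 372 and 220, 916 and 776, and 537 and 303. Trdc cells without Trac gave 0 higher and 9 lower (316 and 244 over all genes). Tests on numbers of cells, chosen after seeing the data, gave 1 lower in Trdc cells, 2 lower in Ccl5-positive cells, and 0 higher and 0 lower in Foxp3-positive cells. Over all genes these counts were 59, 681, 320 and 169. Without the low-count filter 1 member was higher in Ccl5-positive and 2 were lower in Foxp3-positive cells (952 and 404 over all genes). Without cells bearing markers of another type the same counts were 1 and 2 (908 and 283 over all genes). A Cd3 sum of 4 or more gave 0 higher in Foxp3-positive cells (554 over all genes), and Foxp3 at 2 or more UMIs gave 3 lower (340 over all genes). The causes were not tested.

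Leaving out 1 library gave 5 to 9 members higher and 3 to 4 lower in Cd4 cells, 0 to 1 higher and 6 to 8 lower in Trdc cells, 0 to 4 higher and 2 to 4 lower in Ccl5-positive cells, and 0 to 1 higher and 2 to 3 lower in Foxp3-positive cells. Over all genes the same runs gave 566 to 1169 higher and 594 to 1104 lower in Cd4 cells, and 168 to 352 and 115 to 200 in Trdc cells. They gave 456 to 859 and 345 to 681 in Ccl5-positive cells, and 261 to 604 and 132 to 301 in Foxp3-positive cells. The share of T cells with a Trbv UMI (93.7%) became 85.5% when 2 UMIs were required, 95.4% with a Cd3 sum of 4 or more, 94.9% without cells bearing markers of another type and 88.9% after thinning. The share with 2 or more genes (38.7%) became 19.8%, 39.7%, 27.4% after thinning and 24.4% without Trbv12-2. The inverse Simpson number of T cells (12.8) became 14.5 with 2 UMIs, 13.8 after thinning and 14.6 by leading gene. Usage differences between Cd4 and Cd8 cells changed in size in 2 alternatives and held in 7 for both Trbv12-2 and Trbv3. For Trbv5 the difference changed in 1 and held in 8. The other genes called between Cd4 and Cd8 cells held their usage differences in all 9. Low counts limit Trbv13-2, Trbv15, Trbv21 and all members in Trdc and Foxp3-positive cells.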
